A study of Mus musculus with 18 samples.

Results

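Chd3 and Chd4 were followed across 18 Agilent arrays of messenger RNA from mouse jejunal enterocytes, the absorptive cells of the middle small intestine. The pair comprises the rows whose gene name in the authors' deposited table of fold changes is Chd3 or Chd4, which makes 2 of the 51 genes that table names and 2 of the 6914 features in the deposited intensity table. Each gene is represented by 1 array feature. Chd3 is feature 6188 (Agilent probe A_55_P2061386, transcript NM_146019) and Chd4 is feature 15041 (probe A_55_P2020373, transcript NM_145979). Both transcripts carry the same symbols in the RefSeq gene table. Genome positions are left out, since no build is named in the files.

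CHD3 and CHD4, also called Mi-2 alpha and Mi-2 beta, are ATP-dependent helicases that slide nucleosomes. Either can serve as the motor of the nucleosome remodelling and deacetylase complex (NuRD), which joins this activity to the histone deacetylases HDAC1 and HDAC2 and to MTA, MBD, RBBP and GATAD2 subunits. The complex is known mainly for silencing genes and for controlling access to enhancers during differentiation. Its deacetylase subunits are known in mice for their part in maintaining the intestinal epithelium, which is renewed continuously from crypt stem cells.

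The samples came from male BALB/cOlaHsd mice aged 8 weeks at the start, on standard chow, with 1 array per mouse and 3 mice in each of 6 groups. ADI mice were gavaged daily with 9 pesticides mixed at the acceptable daily intake. PC mice received flour of conventionally grown potatoes and PO mice flour of organically grown potatoes, at 30 mg per day. PCS and POS mice received the same dose of conventional and of organic flour, from potatoes under storage conditions. Control mice (Ctr) were gavaged with water. Below, gavaged names only the 15 mice given pesticides or flour, so that gavaged against control does not compare gavage with no gavage. All mice were sampled at day 20 except POS mouse 3, which its label places at day 27, so that POS values include a mouse sampled 7 days after the gavage ended. Nothing in the labels says that equal mouse numbers in different groups mark a shared litter or day.

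Array brightness sets the scale of every value below. The median intensity over the 5021 features measured on all 18 arrays was between 37 and 507 on 17 arrays and 5 on PO array 2, where 84.2% of values were under 16. That array also stands apart in its order of features, with a median Spearman correlation to the other arrays of 0.36, against 0.87 to 0.92 on the rest. Chd3 and Chd4 are therefore given as deposited, on a log2 scale with values set to at least 1. They are also given minus the log2 median of the array, called centred here. Their PO results are also given without PO array 2. Among 22 markers of intestinal cell types only Apoa1, an enterocyte gene that encodes a lipoprotein component, and Cd2, a T cell adhesion gene, carry a name, so the tissue label could be checked no further. Group means of Apoa1 lay between 10.50 and 13.94 (log2) and those of Cd2 between 8.72 and 11.13. In these bulk samples fewer cells of a type and less RNA per cell cannot be told apart.

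Chd3 had intensities of 11623, 7467 and 1036 in ADI mice, 1436, 3101 and 2919 in PC mice and 4903, 13 and 22922 in PO mice. It had 3146, 6104 and 21687 in PCS mice and 5923, 14345 and 2340 in POS mice, against 11005, 9568 and 14025 in control mice. As deposited, 11 of the 15 gavaged arrays lay below the lowest control array and 3 lay above the highest. Of all features, 38.4% had at least as many below. PC was the only group with all 3 arrays below every control, as were 71.3% of all features in that comparison, against 3.8% in ADI and 0.139% in PCS. The spread was widest in PO mice, from the dimmest Chd3 value of the series on PO array 2 to the brightest on PO array 3.

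Chd3 followed the overall brightness of its array closely. Across the 18 arrays its log2 intensity had a Pearson r of 0.97 and a Spearman rho of 0.98 with the log2 array median (permutation p = 1e-05 for each, the smallest that 100000 resamples can give, and 4e-05 after Benjamini-Hochberg adjustment over 4 relations), and r was 0.97 without the 2 arrays farthest from the middle. Such a relation is common here, since the median r over all 5021 features was 0.95, and 74.2% of features had a lower r than Chd3. The differences of Chd3 as deposited therefore move with array brightness.

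**Figure D1:**
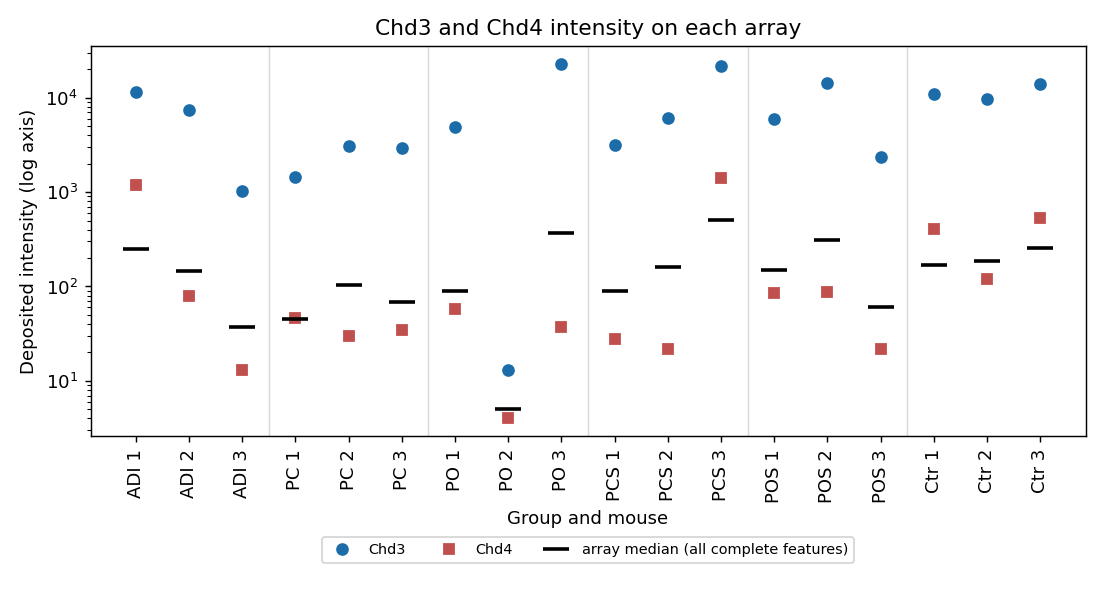
Deposited intensity (log axis) of Chd3 (circles), Chd4 (squares) and the median of 5021 features (bars) on each of the 18 arrays, 3 mice per group. Chd3 runs above the median in step with it, from 13 on PO array 2 to 22922 on PO array 3, while Chd4 lies clearly above the median only on ADI array 1, PCS array 3 and Ctr arrays 1 and 3; the heights of the 2 probes are not comparable with each other.

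Centred on the array median, Chd3 was lower than on any control array in 13 of 15 gavaged arrays, though the test below was not passed. Its centred log2 level was 5.54, 5.67 and 4.81 in ADI mice, 5.0, 4.91 and 5.42 in PC mice and 5.77, 1.38 and 5.95 in PO mice. It was 5.14, 5.26 and 5.42 in PCS mice and 5.31, 5.54 and 5.26 in POS mice, against 6.03, 5.70 and 5.78 in control mice. Every array of the ADI, PC, PCS and POS groups lay below every control array, whereas PO arrays 1 and 3 lay within the control range. Of all features, 9.66% showed such a separation in ADI, 15.7% in PC, 13.2% in PCS and 15.2% in POS, and 9.2% had at least 13 of 15 gavaged arrays below every control. The separation was weaker by percentile in the brightness order of its own array. There, Chd3 was below every control on 9 of the 15 gavaged arrays and above every control on 1. These 9 were all 3 PC arrays, 2 PCS arrays, 2 POS arrays, 1 ADI array and 1 PO array. The share of all features with as many was not counted on that scale. From the lowest group mean up, Chd3 stood at 4.37 ± 2.59 in PO, 5.11 ± 0.27 in PC, 5.27 ± 0.14 in PCS, 5.34 ± 0.46 in ADI, 5.37 ± 0.15 in POS and 5.84 ± 0.17 in Ctr (centred log2, SD, n = 3 each). Only POS and Ctr, at the top of that order, had ranges that did not overlap, and each other neighbouring pair overlapped.

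The centred group means of the 2 named markers differed from control in opposite directions. Apoa1 was at -0.31 in ADI mice, -0.57 in PC mice, -1.58 in PO mice, -0.31 in PCS mice and -0.41 in POS mice. Centred Cd2 was at 0.99, 1.14, 1.32, 1.92 and 0.99 in the same groups, with PO array 2 included. For Apoa1 the PO mean came from PO array 2, at 1.68, with PO arrays 1 and 3 at 6.27 and 6.21. Control arrays were at 6.31, 6.47 and 6.12. ADI array 2 (6.26), PCS array 2 (6.28) and POS array 2 (6.20) also lay within the control range of Apoa1. The part of either marker in the Chd3 and Chd4 values was not tested.

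None of the Chd3 differences passed the test. In limma, fitted over all 5021 features and adjusted by Benjamini-Hochberg, the centred difference of Chd3 from control was -0.50 in ADI mice, -0.73 in PC mice, -1.47 in PO mice, -0.56 in PCS mice and -0.47 in POS mice, each with a standard error of 0.82. Adjusted p values from limma were 1.00, 0.849, 0.299, 0.951 and 0.973 in that order. As deposited the differences were -1.35, -2.28, -3.33, -0.61 and -0.96 (SE 1.82), with adjusted p values in limma of 0.889, 0.559, 0.344, 1.00 and 0.999. The PO value rests on single arrays. With PO array 2 left out Chd3 in PO mice was at -0.10 as deposited and at 0.024 centred, and with PO array 3 left out it was at -5.50 with an adjusted p of 0.027 in limma, where 2936 features were called. As deposited, Chd3 in PCS mice was at -1.38 with PCS array 3 left out and at 0.015 with PCS array 1 left out, and in ADI mice it was at -2.03 and -0.29 when ADI arrays 1 and 3 were left out in turn. In POS mice it was at -0.31 when POS array 3, the mouse of day 27, was left out. Over all features limma called 0.0% in each of these 5 comparisons on either scale, with between 2 and 523 features at an unadjusted p under 0.05 as deposited and between 41 and 1039 centred.

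**Figure D2:**
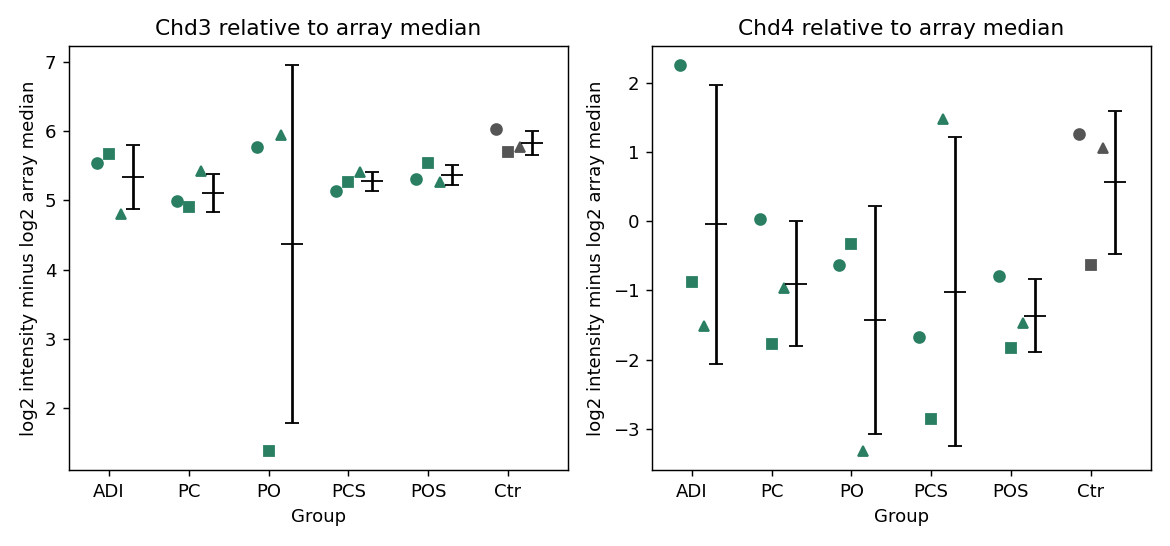
Log2 intensity minus the log2 array median for Chd3 (left) and Chd4 (right), by group; circles, squares and triangles are mice 1, 2 and 3, and the bars beside them give mean and SD (n = 3). Chd3 lies below every control array in ADI, PC, PCS and POS mice, with PO array 2 far below at 1.38; Chd4 spreads most in PCS, ADI and PO mice and least in POS mice, with ADI array 1 and PCS array 3 above the controls.

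Chd4 was lower than in any control mouse in 13 of 15 gavaged mice as deposited and far higher in the other 2. Its intensities were 1196, 80 and 13 in ADI mice, 46, 30 and 35 in PC mice and 58, 4 and 37 in PO mice. They were 28, 22 and 1409 in PCS mice and 86, 87 and 22 in POS mice, against 402, 119 and 534 in control mice. Every PC, PO and POS array was below every control array, which 71.3% of all features showed in PC, 7.79% in PO and 4.12% in POS. Over the 15 gavaged arrays together, 2.59% of features had at least 13 below every control array. Arrays ADI 1 and PCS 3, the 2 exceptions, exceeded the highest control at 1196 and 1409.

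The relation of Chd4 to array brightness had a lower r than that of most features. Its log2 intensity showed an r of 0.75 and a rho of 0.76 with the log2 array median over 18 arrays (permutation p = 0.0001 and 0.0005, adjusted to 0.0002 and 0.00067), with r at 0.64 without the 2 arrays farthest from the middle, and 13.7% of features had a lower r. PO array 3, with a median of 370, held a Chd4 intensity of 37, and PC array 1, with a median of 45, held 46. By place in the brightness order of its own array, which no scaling between arrays alters, Chd4 stood at percentiles 78.8, 34.8 and 20.3 in ADI mice, 50.4, 17.1 and 32.8 in PC mice and 38.6, 43.9 and 6.41 in PO mice. It stood at percentiles 19.5, 5.83 and 70.0 in PCS mice and 35.7, 19.6 and 24.3 in POS mice, against 67.4, 39.8 and 64.1 in control mice. By this measure all 3 POS mice and 11 of the 15 gavaged mice were below every control mouse, where 16.1% of all features separated so in POS and 17.1% had at least 11 of 15 below, and ADI mouse 1 and PCS mouse 3 were above every control mouse. Many of the low values are dim: 13 of the 15 gavaged arrays held 87 or less, and whether a probe was above background is not given in the files.

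Centred on the array median, Chd4 stood, from the lowest group mean up, at -1.43 ± 1.65 in PO, -1.36 ± 0.53 in POS, -1.02 ± 2.24 in PCS, -0.90 ± 0.91 in PC, -0.043 ± 2.02 in ADI and 0.56 ± 1.04 in Ctr (centred log2, SD, n = 3 each). Each neighbouring pair in this order overlapped. POS was the only group with all 3 arrays below every control array, as 15.2% of all features were in POS, against 18.6% in PO. In ADI, PC, PO and PCS mice 2 of 3 arrays were below every control array. Of all features, 18.1% had at least as many of the 15 gavaged arrays below every control as Chd4, which had 11.

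The differences of Chd4 from control were -1.45 in ADI mice, -3.02 in PC mice, -3.85 in PO mice, -1.63 in PCS mice and -2.43 in POS mice as deposited (log2, SE 1.62), and -0.61, -1.47, -1.99, -1.58 and -1.93 centred (SE 1.13). None passed in limma, where the adjusted p was 0.889, 0.559, 0.344, 1.00 and 0.999 as deposited and 1.00, 0.811, 0.307, 0.868 and 0.919 centred. The 95% interval as deposited included 0 in 4 of the 5 comparisons and ran from -7.21 to -0.48 in PO. The PO difference was -2.67 when PO array 2 was omitted, and -4.27 with an adjusted p of 0.043 in limma when PO array 3 was. Centred, these were -2.54 and -1.04. The ADI difference turned to 0.071 as deposited and 0.13 centred without ADI array 3, and was -3.19 and -1.76 without ADI array 1. The PCS difference was -3.57 as deposited and -2.82 centred without PCS array 3, and -0.57 and -0.66 without PCS array 2. In PC mice Chd4 kept its direction whichever array was left out, from -3.67 to -2.59 as deposited and -2.06 to -1.03 centred. It did so in POS mice too, from -3.08 to -1.77, the last without POS array 3, the mouse of day 27. A fit of the PC and Ctr arrays alone gave Chd3 and Chd4 an adjusted p of 0.0066 each in limma as deposited, where it called 70.1% of all features, and 0 features with centred arrays.

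**Figure D3:**
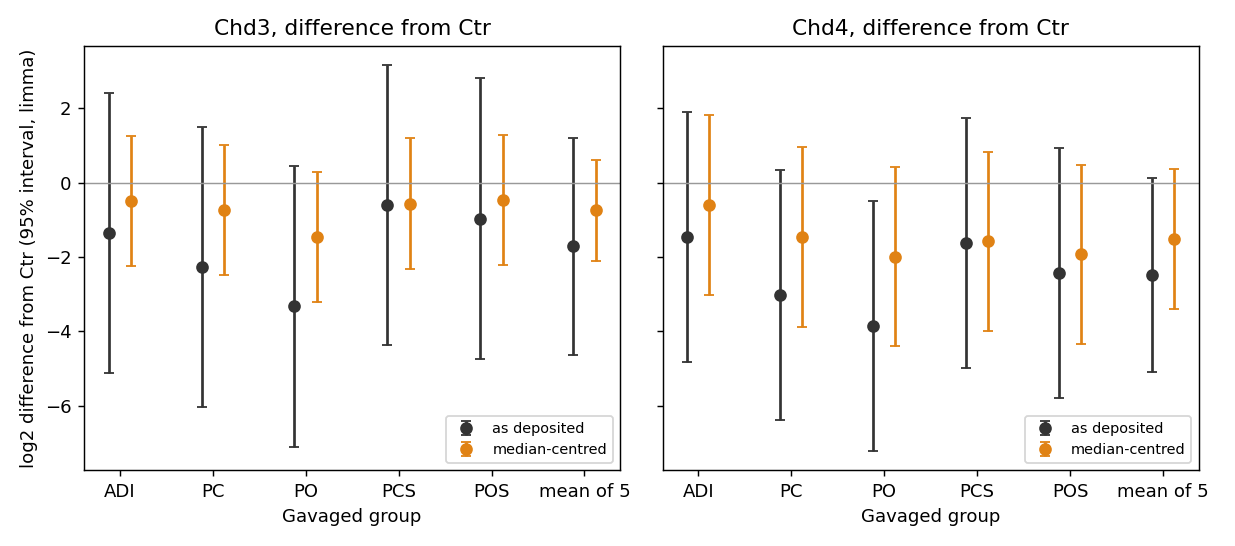
Log2 difference from Ctr with its 95% interval from limma for Chd3 (left) and Chd4 (right), in each gavaged group and in the mean of all 5, as deposited (dark) and centred on the array median (orange). All point values are below 0, and the 1 interval that leaves out 0 is that of Chd4 in PO mice as deposited, from -7.21 to -0.48; no difference passed the adjusted test.

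Set among all features, Chd4 lay near the low end of the differences from control, at a place that centring does not alter. In POS mice 12 of the 5021 features (0.239%) had a lower difference than Chd4, in PCS mice 32 (0.637%), in PC mice 71 (1.41%), in PO mice 169 (3.37%) and in ADI mice 362 (7.21%), and for the mean of the 5 gavaged groups 25 (0.498%). For Chd3 the same share was 20.6% in POS, 20.8% in PCS, 10.4% in both PC and PO and 12.1% in ADI. These 5 comparisons share the 3 control arrays, so their places are not separate pieces of evidence, and the genes were picked with earlier results known. They also depend on single arrays. With each array left out in turn, the share below Chd4 lay between 0.159% and 1.04% in POS, 0.279% and 12.4% in PCS (without PCS array 2), 0.339% and 5.26% in PC (without PC array 2), 0.677% and 28.6% in PO (without PO array 3) and 0.358% and 71.8% in ADI (without ADI array 3), the array named being the one behind the higher share. For Chd3 the share in PO mice was 51.8% without PO array 2.

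Taking the 5 groups given pesticides or flour as 1 mean, Chd4 was at 5.73 ± 2.19 (log2, SD, n = 15). It was at 8.20 ± 1.15 (SD, n = 3) in control mice, gavaged with water. The difference was -2.47 as deposited (95% interval -5.08 to 0.13) and -1.51 centred (-3.38 to 0.36), with an adjusted p in limma of 0.676 and 0.540. An exact two-sided permutation test of the 15 gavaged against the 3 control arrays gave p = 0.085 as deposited, 0.11 centred and 0.085 for the percentile within the array, each 0.257 after adjustment over 7 such tests. That p depends on the 2 bright arrays, since the exact test of Chd4 as deposited gave 0.029 without ADI array 1 and 0.025 without PCS array 3. Chd3 was at 11.77 ± 2.60 (log2, SD, n = 15) in gavaged mice and 13.48 ± 0.28 (SD, n = 3) in control mice. Its difference was -1.70 as deposited and -0.74 centred, and without PO array 2 it was -1.06 and -0.45. The centred 95% interval without that array ran from -0.86 to -0.032 (limma adjusted p = 0.284). The exact two-sided permutation test gave p = 0.248 as deposited, 0.176 centred and 0.213 for the percentile within the array, each 0.289 after adjustment. In limma 0.0% of features were called in this contrast on either scale, with 30 at an unadjusted p under 0.05 as deposited and 468 centred.

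The difference between the 2 genes within an array is not altered by scaling arrays against each other, and shows only whether the genes moved unequally. Near the lowest intensities it is bounded: PO array 2, with 13 for Chd3 and 4 for Chd4, gave the difference closest to 0. Log2 Chd4 minus log2 Chd3 was -3.28, -6.54 and -6.32 in ADI mice, -4.96, -6.69 and -6.38 in PC mice and -6.40, -1.70 and -9.27 in PO mice. It was -6.81, -8.12 and -3.94 in PCS mice and -6.11, -7.37 and -6.73 in POS mice, against -4.77, -6.33 and -4.72 in control mice. Control array 2 lay below the other control arrays and within the range of every gavaged group. The mean differed from control by -0.11 in ADI mice, -0.74 in PC mice, -0.52 in PO mice, -1.02 in PCS mice and -1.46 in POS mice, with exact permutation p values of 0.9, 0.2, 0.9, 0.6 and 0.2 (two-sided, 0.1 being the smallest that 3 against 3 allow) and 0.9, 0.5, 0.9, 0.9 and 0.5 after adjustment over 5. The PO value was -2.57 when PO array 2 was left out and 1.22 when PO array 3 was, and the ADI value lay between -1.16 (ADI array 1 left out) and 0.47 (ADI array 2 left out). A floor of 16 in place of 1 moved the PO value to 0.048. The PCS value lay between -2.19 (PCS array 3 left out) and -0.11 (PCS array 2 left out), and the PC value between -1.27 (Ctr array 2 left out) and -0.40 (PC array 2 left out). For the 15 gavaged against the 3 control arrays the difference was -0.77, with an exact permutation p of 0.495, and lay between -1.30 without Ctr array 2 and -0.49 without Ctr array 3. Across the 18 arrays the centred levels of Chd3 and Chd4 had an r of 0.023 and a rho of 0.22 (permutation p = 0.9 and 0.4, unchanged by adjustment), and r was 0.21 without the 2 arrays farthest from the middle. As deposited the 2 genes had an r of 0.72 and a rho of 0.77 (permutation p = 0.0002 and 0.0004, adjusted to 0.00027 and 0.00067), a scale on which both also follow the array median.

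**Figure D4:**
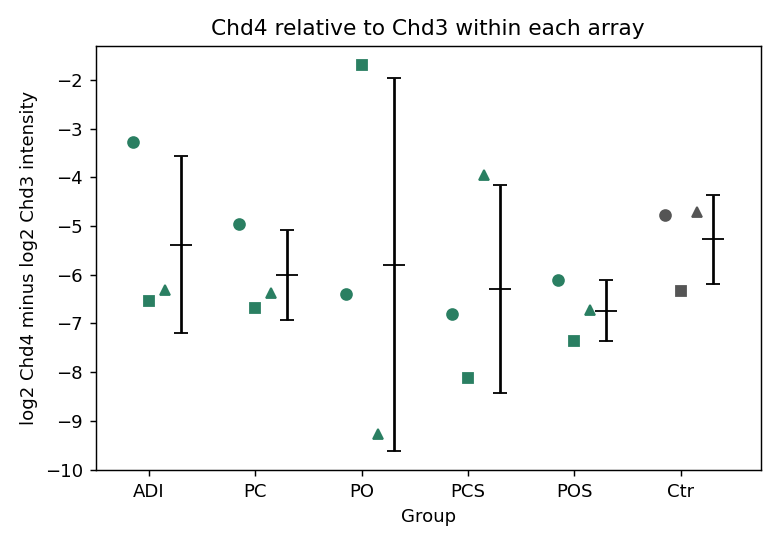
Log2 Chd4 intensity minus log2 Chd3 intensity on each array, by group; circles, squares and triangles are mice 1, 2 and 3, and the bars give mean and SD (n = 3). All gavaged group means lie below the control mean of -5.27, by at most 1.46, and each gavaged group overlaps the control range.

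The cultivation system was compared as conventional against organic flour. In PC against PO mice, Chd3 differed by 1.05 and Chd4 by 0.83 as deposited, and by 0.74 and 0.52 centred, with adjusted p values in limma of 1.00 each and of 0.705 and 0.886. Without PO array 2 the deposited values turned to -2.17 for Chd3 and -0.35 for Chd4, and centred Chd3 turned to -0.75 while centred Chd4 was 1.08. In PCS against POS mice, Chd3 differed by 0.36 as deposited and -0.095 centred, and Chd4 by 0.80 and 0.35, with adjusted p values of 1.00 each in limma. Chd4 turned to -1.14 without PCS array 3, and to -0.90 centred. Limma called 0.0% of features in these comparisons, with 11 and 2 at an unadjusted p under 0.05 as deposited and 752 and 15 centred.

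Storage was compared over both kinds of potato. In the stored (PCS and POS) against the unstored (PC and PO) groups Chd3 was 2.02 higher and Chd4 1.40 higher as deposited, where the median feature was 1.47 higher, and centred they differed by 0.58 and -0.026. Adjusted p values in limma were 0.297 and 0.306 as deposited and 0.953 and 0.994 centred. Without PO array 2, Chd3 was at 0.40 as deposited and -0.16 centred, and without PO array 3 it was at 3.10 as deposited (limma adjusted p = 0.052). Chd4 as deposited lay between 0.43 without PCS array 3 and 1.93 without PCS array 2. The interaction, which sets PCS minus POS against PC minus PO, was -0.70 for Chd3 and -0.031 for Chd4 as deposited and -0.84 and -0.18 centred, with adjusted p values in limma of 1.00 each, and of 0.825 and 0.976 centred. Its 95% interval ran from -6.02 to 4.63 for Chd3 and from -4.79 to 4.73 for Chd4 as deposited. Limma called 0.0% of features for storage and for the interaction, with 87 and 1 at an unadjusted p under 0.05 as deposited and 63 and 356 centred.

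None of the 13 other NuRD subunits looked for (among them Mta1, Hdac1, Hdac2, Mbd3, Rbbp4 and Gatad2a) carries a name in the files, so the rest of the complex was not analysed here. Of 23 genes listed as other chromatin or DNA-binding regulators, 4 carry a name, and limma called no feature in any comparison with control, these 4 included. Aebp2, a cofactor of Polycomb repressive complex 2, was above control by 0.35 in ADI mice, 1.47 in PC mice, 1.02 in PO mice, 1.61 in PCS mice and 1.99 in POS mice as deposited. Thap1, a zinc-finger transcription factor, was at -1.59, -2.78, -3.82, -1.05 and -1.50 in the same groups. Tead1, which binds DNA for the Hippo pathway, was at 3.11, 1.84, -2.98, 2.37 and 1.73. Uhrf1bp1, listed for binding the chromatin protein UHRF1 but itself a lipid-transfer protein, was at 0.28, -0.12, 0.85, 1.99 and -0.41, and above control in all 5 groups once centred. Of these 4 genes, only Thap1 had a mean below control in all 5 gavaged groups, on either scale, as Chd3 and Chd4 had. As deposited, the median feature was also below control, at -0.90, -1.55, -1.98, -0.16 and -0.53 in the order above. Direction alone therefore does not set Thap1, Chd3 and Chd4 apart on that scale. Centred, the median feature lay between -0.12 and -0.0027, and Thap1 between -1.96 and -0.74. Centred Aebp2 lay between 1.20 and 3.02, and centred Tead1 was at -1.12 in PO mice. As deposited, Aebp2 had an SD of 0.21 in PO mice, whose array medians were 90, 5 and 370. Its centred PO value of 2.88 therefore depends on PO array 2, and values of these 4 genes without that array are not given. As deposited, Thap1 had an SD of 5.61 in PO mice.

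Among the 42 other named genes with a value on every array, those most like Chd3 in centred level over the 18 arrays were Apoa1 (r 0.98, rho 0.79), Bmf, a BH3-only gene of programmed cell death (r 0.97, rho 0.86), and Alkbh2, a DNA repair dioxygenase (r 0.97, rho 0.90). PO array 2 carries much of this likeness: without it r was 0.77 for Apoa1, 0.81 for Bmf and 0.85 for Alkbh2, and Acat3, at 0.91, was the most alike. Apoa1 is also the enterocyte marker above, and its part in the Chd3 result was not tested. Alkbh2 had intensities of 9709, 5236 and 871 in ADI mice and 906, 2883 and 2206 in PC mice, against 6861, 7437 and 11573 in control mice.

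Those most like Chd4 were Ufc1 (r 0.78, rho 0.78) and Ufm1 (r 0.62, rho 0.61), the conjugating enzyme and the modifier of the UFM1 protein-tagging pathway, and Prkar1a, which restrains the cyclic AMP-dependent kinase (r 0.43, rho 0.38). Without PO array 2 these were 0.78, 0.63 and 0.44, which put Pde4b, a phosphodiesterase gene at 0.65, second and Prkar1a at rank 10. Ufc1 had intensities of 21600, 4147 and 792 in ADI mice and 498, 448 and 34726 in PCS mice, against 3783, 1819 and 8321 in control mice. ADI array 1 and PCS array 3 were thus also its highest arrays, and control array 2 its lowest control. Chd3 ranked 19th of 42 in likeness to Chd4. All these values share the arrays and their brightness, and the named genes were selected by the authors on these samples.

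The authors' deposited table gives log2 fold changes per mouse against the controls, with folds between 0.5 and 2 set to 0 per its header. For Chd4 the authors' deposited table lists ADI mice only, at 1.63, 1.50 and 1.54. The intensities of the same 3 mice were 3.40, 0.227 and 0.037 times the control mean of 352, so that ADI mouse 1 has the same direction in both files and ADI mice 2 and 3 the opposite. Taken out of the log, the folds in the authors' deposited table are those of the whole numbers 1296, 1180 and 1213 over a control mean. These numbers go with a control sum of 1255, the smallest of 159 sums up to 200000 that make all 3 numbers whole. The sum in fact used is not known. The intensity table holds 1196, 80 and 13 for these mice, and 1055 for the control sum. If the sum was 1255, the numbers behind the folds exceed the intensities by 100, 1100 and 1200, and the control sum by 200.

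For Chd3 the authors' deposited table lists PC mice only, at -2.11, -1.76 and -1.85. The intensities gave 0.125, 0.269 and 0.253 times the control mean for PC mice 1, 2 and 3, below 0.5 in each. Over the mean of 3 controls with a sum of 31598, the folds in the authors' deposited table are those of 2436, 3101 and 2919. The values of PC mice 2 and 3 are then equal to the deposited intensities, that of PC mouse 1 is 1000 above its intensity of 1436, and the control sum minus the deposited 34598 is -3000. The same folds also come from smaller whole numbers, and this sum was chosen because it makes 2 of the 3 numbers equal. By the rule used for Chd4, the smallest sum is 4514, with 348, 443 and 417, none equal to an intensity.

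The rule in that header was applied to the intensities, with every mouse of a group below 0.5 or above 2 times the control mean. Chd4 met it as deposited in PC, PO and POS mice, all lower, where the authors' deposited table gives 0 for each mouse, and it did not meet it in ADI mice, where 2 arrays were below 0.5 and 1 above 2. Of all features 46.4% met it toward lower values in PC, 4.28% in PO and 0.856% in POS. In ADI and PCS mice, where neither gene met it, 0.458% and 0.119% of features did. With centred arrays Chd4 met it in PO and POS mice, where 5.28% and 0.936% of features did. Chd3 met it in PC mice as deposited and in no group once centred, where the shares in ADI, PC and PCS mice were 0.179%, 1.06% and 0.578%. This count, like the choice of the control sum for Chd3, was made after the values were seen.

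**Figure D5:**
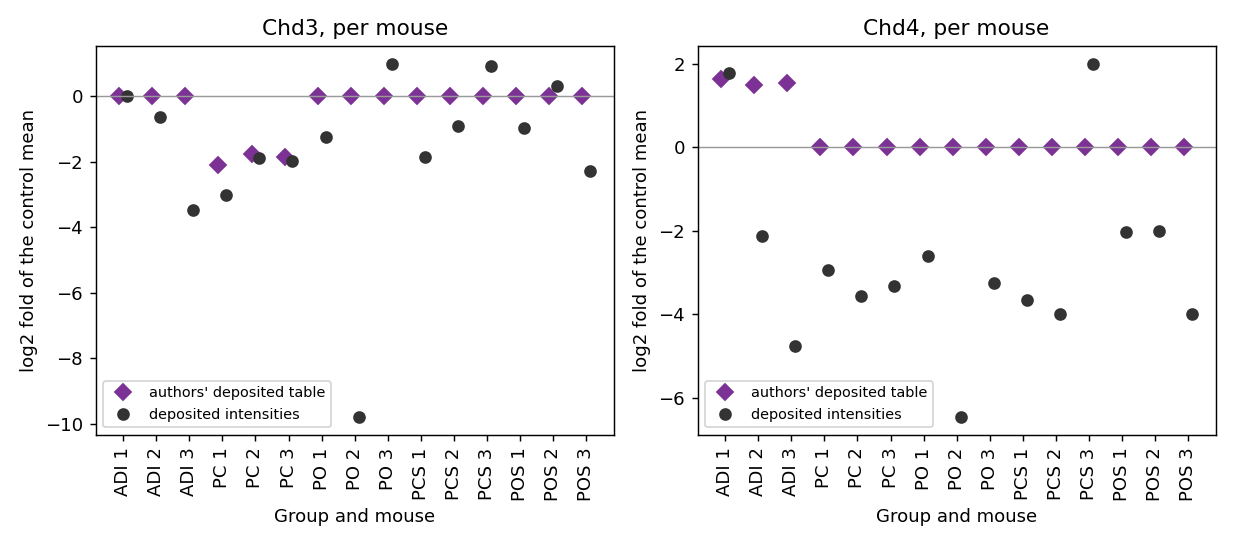
Log2 fold of the control mean for each gavaged mouse, for Chd3 (left) and Chd4 (right), from the authors' deposited table (diamonds, with filtered values at 0) and from the deposited intensities (circles). For Chd4 the files part in ADI mice 2 and 3, at 1.50 and 1.54 in the authors' deposited table and far below 0 in the intensities; for Chd3 the PC values lie close in mice 2 and 3.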

How the data were processed

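RNA of 18 mice was hybridised to 1-colour (Cy3) Agilent arrays and read with Agilent Feature Extraction, per the submitters' processing notes; which signal was deposited, and after what background step, is not given in the sources used here. Each deposited intensity is a whole number on a linear scale, up to 65501. The authors' deposited table gives a log2 fold change for each mouse, filtered per the file headers. Groups and mouse numbers come from the labels, with 1 array per mouse, so p-values measure the spread between mice and arrays together.

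Intensities were raised to at least 1 and log2 transformed. The 1893 features with a blank were left out, and a mean for each group was fitted with limma 3.58.1 in R 4.3.3 (eBayes without trend, all 18 arrays), with Benjamini-Hochberg adjustment at 0.05 over 5021 features. As deposited was the main scale; centred values subtract the array median. Single values were tested by exact permutation in Python 3.11.15. Whole numbers behind the folds were sought for control sums up to 200000, to within 1e-06. The number of arrays limits the precision. Genes named are Chd3, Chd4, the 3 named genes most like each in centred level, and the named members of the lists; Acat3 was added after its value was seen, as were the percentile within an array and the likeness without PO array 2. Members, lists and tests were chosen with earlier results of these data known.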

Additional observations from a re-analysis of the deposited data

How the results depend on the processing

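Differences are on the log2 scale. As deposited, limma passed Chd3 or Chd4 only in the fits named here, of all settings run. With a centre at the array median, PCS against POS turned to -0.095 for Chd3 and stored against unstored to -0.026 for Chd4; with a centre at the 75th percentile these were -0.028 and -0.22, and the interaction of Chd4 turned to 0.29. Stored against unstored was -0.098 for Chd4 after quantile normalization. A floor of 16 turned the interaction of Chd4 to 0.64 and the within-array difference of PO mice to 0.048. Fits of only the groups compared called 1 feature in ADI, 3519 in PC, 1 in PCS and 11 in POS mice, and Chd3 and Chd4 in PC mice, at -2.28 and -3.02, passed there. Array weights gave no usable fit, since they ran from 1.57e-11 to 4974. That fit called up to 4330 features, and its values are not used. It passed Chd3 and Chd4 in ADI, PC, PCS and POS mice against control, and Chd4 in PCS against POS mice. A replicate block, with mouse numbers as pairs, left every difference as it was and called 0 features, with Chd4 in PC mice at -3.02 (limma adjusted p = 0.599). The arrays gave no clear sign of pairing by number. Same-numbered arrays of different groups had deviations correlated at -0.76 to 0.61 (median 0.065 over 45 pairs), against a median of -0.030 over 90 pairs of different number. Of 18 arrays, 7 correlated best with their own number. With 3 arrays per group these values cannot exclude a shared litter or day.

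With single arrays left out, as deposited, the ranges against control were -3.19 to 0.071 for Chd4 in ADI, -5.50 to -0.10 for Chd3 and -4.60 to -2.67 for Chd4 in PO, and -1.38 to 0.015 for Chd3 in PCS mice, and 0 to 2936 features were called in PO mice, the 2936 without PO array 3, with Chd3 and Chd4 among them. PC against PO ranged from -2.17 to 3.22 for Chd3 and -0.35 to 1.58 for Chd4, PCS against POS from -0.41 to 1.00 and -1.14 to 1.86, and the interaction from -2.86 to 2.53 and -1.97 to 1.15. With centred arrays the ranges were -1.76 to 0.13 for Chd4 in ADI and -2.26 to 0.024 for Chd3 in PO mice. PC against PO then ranged from -0.75 to 1.54 for Chd3 and -0.42 to 1.08 for Chd4, PCS against POS from -0.90 to 1.27 for Chd4, stored against unstored from -0.16 to 0.98 and -0.65 to 0.43, and the interaction from -1.63 to 0.65 and -1.42 to 0.77. Centred counts of called features were 0 to 1 in ADI, PC, PCS, POS and the mean of the 5 groups, 0 to 73 in PO and 0 to 3 in PC against PO. The within-array difference ranged from -1.16 to 0.47 in ADI and -2.57 to 1.22 in PO mice. The mean of 15 gavaged against 3 control arrays ranged from -3.13 to -2.04 for Chd4 and passed the exact test, unadjusted, without ADI array 1 or PCS array 3. Of the settings run, 866 values kept their direction and side of the threshold and 46 changed direction. Another 6 came to pass the threshold, a count that leaves out the passes of the array-weight fit, and 18 changed otherwise. Whether the cause of each change lies in the array or in the mouse was not tested, and the signal over background of Chd4, dim on 13 of 15 gavaged arrays, is not known.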
